A study of Mus musculus with 231 samples.

Results

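The miR-191 and miR-425 cluster yields 4 mature miRNAs, mmu-miR-191-5p, mmu-miR-191-3p, mmu-miR-425-5p and mmu-miR-425-3p, each listed by name among 1863 mature miRNAs in the training counts, 1895 in the training CPM and 1817 in the validation CPM. The 4 members were picked from measured values: miR-191-5p had been higher in CM mice than in Ctrl mice in both cohorts. The difference between CM and Ctrl mice after induction is therefore given below as a description, without a p-value, and the same holds for the last CM libraries. Ctrl libraries after induction are 1 side of the same contrast, so the change of miR-191-5p within Ctrl mice is also only described. Where these contrasts are read as counts of called miRNAs, nothing is drawn from the members' share. Levels before induction, and the other 3 members within Ctrl mice over time, were tested.

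MicroRNAs were sequenced from PBMC (peripheral blood mononuclear cells). The C57BL/6 donors were mice with the conditional knock-in Cbfb56M/+/Mx1-Cre (CM; genotype label CHW), which express the leukemogenic fusion Cbfb-MYH11 after poly(I:C), and similarly treated littermates (Ctrl; labels HW, CW or WT). Poly(I:C) was given at 14 mg/kg in 7 doses to mice 6 to 8 weeks old. Mx1-Cre is switched on by interferon and acts in blood cells and in other tissues, and poly(I:C), which both arms received, itself induces interferon. What the genotype codes stand for is not stated. Some sources allow Ctrl mice to carry the allele without Cre, and others do not. The training cohort held 7 CM mice (53 libraries) and 7 Ctrl mice (76 libraries), sampled before induction (month 0) and up to month 10, and the validation cohort held 10 CM mice (60 libraries) and 6 Ctrl mice (42 libraries) at points 1 to 7 and a point L that the labels do not explain. The series description counts 1 CM mouse fewer and 1 Ctrl mouse more in the validation cohort, and the sample labels were followed here, so counts of validation mice by arm rest on those labels. By the labels, 4 training CM mice were female and 3 male, and 2 training Ctrl mice were female and 5 male. In the validation cohort 5 CM mice were female and 5 male, and 3 Ctrl mice were female and 3 male. Each library came from 1 mouse at 1 time, so p-values measure the spread between mice. In bulk PBMC, fewer cells of a type and less RNA per cell cannot be told apart.

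A microRNA gene is transcribed as a longer precursor that folds into a hairpin. Drosha and Dicer cut the hairpin into a short duplex, and the strand from either side, the 5p or the 3p arm, can be loaded into Argonaute, where its seed (bases 2 to 8) pairs with target mRNAs. The strand that is not loaded is mostly degraded, so the arms of one hairpin usually differ widely in level. miR-191 and miR-425 are abundant in blood cells, and both are in common use as reference miRNAs in blood.

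The mature sequences, from RefSeq on build GRCm38.p6, are shown because they define what was counted, with the seed in capitals.
miR-191-5p: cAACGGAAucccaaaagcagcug
miR-191-3p: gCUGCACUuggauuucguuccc
miR-425-5p: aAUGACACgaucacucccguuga
miR-425-3p: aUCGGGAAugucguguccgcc
The 4 seeds differ from each other. Of all mature miRNAs in the RefSeq table, 1 shared a seed with a member: miR-489-3p with miR-425-5p, and it had 4 counts in all training libraries together. On GRCm38.p6 the mature arms lie on the plus strand of chromosome 9, miR-191-5p at chr9:108568325-108568347, miR-191-3p at chr9:108568367-108568388, miR-425-5p at chr9:108568789-108568811 and miR-425-3p at chr9:108568830-108568850.

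The hairpins, also from RefSeq, show the arms in capitals.
Mir191: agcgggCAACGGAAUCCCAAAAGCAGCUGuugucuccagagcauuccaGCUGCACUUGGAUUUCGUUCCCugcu
Mir425: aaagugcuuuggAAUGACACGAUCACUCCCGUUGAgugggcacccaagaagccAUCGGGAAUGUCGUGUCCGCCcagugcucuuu
Mir191 (chr9:108568319-108568392, 74 nucleotides) and Mir425 (chr9:108568777-108568861, 85 nucleotides) lie 384 nucleotides apart on the same strand. Both are inside the RefSeq range of Dalrd3 (chr9:108567484-108572773). The methods of the study name build mm9, on which the same hairpin sequences match 1 place each, Mir191 at chr9:108470650-108470723 and Mir425 at chr9:108471108-108471192. There the older annotation starts Dalrd3 1499 and 1030 nucleotides downstream of the 2 hairpins.

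The arms of each hairpin differed widely in level, and the 5p arms were the abundant ones. Levels are given in CPM, the counts of a miRNA per 1000000 counts of its library, computed from the raw training counts. Library sizes were first scaled with TMM, a trimmed mean of the log ratios between libraries. All 4 members were above 0 in all training libraries (53 CM and 76 Ctrl). Mean levels were 22151 ± 8071 CPM (SD over these libraries) for miR-191-5p, 11261 ± 2914 CPM for miR-425-5p, 197 ± 33.6 CPM for miR-425-3p and 20.4 ± 10.4 CPM for miR-191-3p. By summed counts miR-191-5p ranked 16 and miR-425-5p 19 of 1863 miRNAs, whereas the 3p arms ranked far lower, miR-191-3p at 267. A library held 20563 to 221335 counts of miR-191-5p and 16144 to 98128 of miR-425-5p, but 234 to 1676 of miR-425-3p and 23 to 344 of miR-191-3p. Counting error therefore weighs most on miR-191-3p.

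Per library, the count of miR-191-5p was 200 to 3195 times that of miR-191-3p (median 1199), and the count of miR-425-5p was 24.4 to 97.2 times that of miR-425-3p (median 56.8). The 5p arms of the 2 hairpins stood much closer, with 1.11 to 3.67 counts of miR-191-5p per count of miR-425-5p (median 1.92). The deposited training CPM came from another counting of the same libraries. It gave nearly the same mean as the raw counts for miR-191-5p (23425 ± 9296 CPM) and miR-191-3p (20.9 ± 12.9 CPM), but 7244 ± 2056 CPM for miR-425-5p and 48.7 ± 14.2 CPM for miR-425-3p (SD over the same libraries). The raw counts were thus 1.55 times the deposited level for miR-425-5p and 4.04 times for miR-425-3p. Compared library by library, log2(CPM + 1) in both tables had a Pearson's r of 0.991 for miR-191-5p, 0.988 for miR-191-3p, 0.869 for miR-425-5p and 0.720 for miR-425-3p. Values of the miR-425 arms depend on the counting and those of the miR-191 arms hardly do.

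Before induction, with no fusion expressed, no member passed the test between arms. For the training counts the test was the quasi-likelihood F test of edgeR, and a miRNA was called when its p-value, adjusted by Benjamini-Hochberg (BH) over all miRNAs tested, was under 0.05. At month 0 0.209% of 478 tested miRNAs were called. miR-191-5p ranged from 17780 to 26909 CPM (median 20945) in 7 CM mice and from 17382 to 23214 CPM (median 21474) in 7 Ctrl mice, and the arms overlapped. The log2 difference was 0.05 ± 0.12 (SE, edgeR, BH-adjusted p = 0.901). miR-425-5p ranged from 8960 to 12969 CPM (median 9796) in CM mice and from 6927 to 9577 CPM (median 8682) in Ctrl mice. Here 5 of 7 CM mice lay above every Ctrl mouse, yet the difference of 0.25 ± 0.11 did not pass the test (edgeR, BH-adjusted p = 0.324). In the deposited CPM 0 of 7 CM mice did so, and the log2 difference was 0.18. The 3p arms were at -0.21 ± 0.14 for miR-191-3p and -0.01 ± 0.09 for miR-425-3p (edgeR, BH-adjusted p = 0.507 and 0.980).

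After induction the mean level of miR-191-5p was higher in CM than in Ctrl mice at every month with both arms, and at months 2 and 3 most CM mice lay above every Ctrl mouse. One month after induction it ranged from 21774 to 34871 CPM (median 24337) in 7 CM mice and from 14833 to 28228 CPM (median 20570.4) in 7 Ctrl mice. All 7 CM mice were above the Ctrl median and 3 were above every Ctrl mouse. At month 2 it ranged from 24735 to 33900.0 CPM (median 31350.2) in 6 CM mice and from 8187 to 25243 CPM (median 22139) in 7 Ctrl mice, and 5 of 6 CM mice lay above every Ctrl mouse. At month 3 the ranges were 18305 to 39316 CPM (median 28144, n = 7) and 17757 to 25760 CPM (median 20202, n = 7), with 5 of 7 CM mice above every Ctrl mouse. At month 4 they were 21905 to 50949 CPM (median 34150.0, n = 6) and 17740 to 38646 CPM (median 22678, n = 7). Only 2 of 6 CM mice, 3338 and 3357, then lay above every Ctrl mouse, and these were the last libraries of both.

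**Figure D1:**
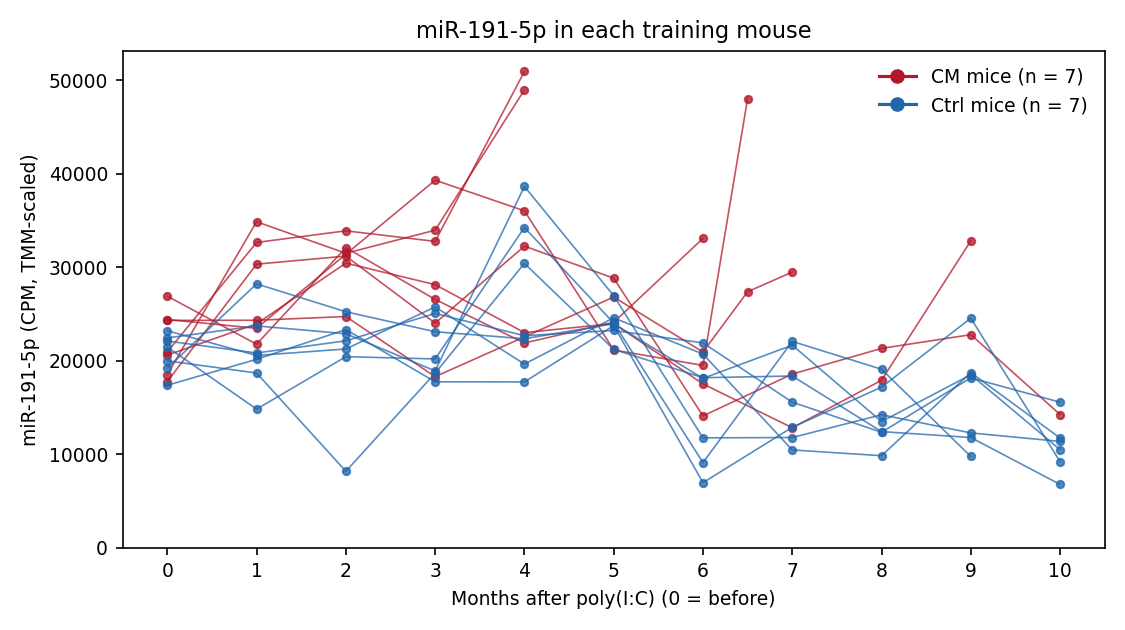
miR-191-5p in CPM, TMM-scaled, against months after poly(I:C), with 1 line per training mouse (7 CM in red, 7 Ctrl in blue). CM lines lie mostly above Ctrl lines at months 1 to 4, meet them at month 5, and Ctrl lines end between 6777 and 15572 CPM at month 10.

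At month 5 the 5 CM mice had 21159, 23988, 24114, 26820 and 28837 CPM of miR-191-5p, and 7 Ctrl mice had 21223 to 26961 CPM (median 23966). At month 6 the CM mice had 14106, 17530, 19508, 20943 and 33091 CPM, and the Ctrl mice had 6967 to 21918 CPM (median 18118). Both arms overlapped at both months, and the highest library of month 6, from mouse 3341, was again the last of its mouse. Later months held few CM mice. At month 7 these had 12839, 18585 and 29493 CPM against 10467 to 22076 CPM (median 15577) in 7 Ctrl mice, and at month 8 they had 17922 and 21328 CPM against 9852 to 19096 CPM (median 13499). At month 9 they had 22796 and 32834 CPM against 9767 to 24561 CPM (median 18175), and at month 10 the only CM mouse had 14256 CPM. The arms overlapped at each of these months. In order from month 1 to month 6, the log2 differences were 0.36 ± 0.16 (SE), 0.57 ± 0.21, 0.50 ± 0.16, 0.51 ± 0.28, 0.10 ± 0.10 and 0.47 ± 0.32. Without mouse 3341 the last of these was 0.17, and without mouse 3338 that of month 4 was 0.28. At month 2 Ctrl mouse 3349 had the lowest value and the fewest counts of its group, and the difference without it was 0.43.

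Of the 4 members, 1 was called higher in CM mice at month 3 (miR-191-5p) and none at months 1, 2, 4, 5 and 6. The share of all tested miRNAs called was 27.5%, 13.5%, 22.0%, 0.837%, 0% and 0% in order of month. Since this contrast chose the members, nothing is read from their count. At months 5 and 6, 21.6% and 6.98% of miRNAs had an unadjusted p under 0.05 in edgeR, and DESeq2 called 21 and 0 while limma on the deposited CPM called 0 at both. The difference of miR-191-5p at month 3 was positive in all 23 alternative settings, but it was called in only 12 of them.

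The other members moved less or differently. miR-425-5p had log2 differences of 0.21 ± 0.14, 0.23 ± 0.15, 0.33 ± 0.12, 0.38 ± 0.24, 0.09 ± 0.11 and 0.26 ± 0.25 at months 1 to 6. These stood beside the 0.25 ± 0.11 it already had at month 0 in the raw counts. miR-425-3p was at -0.16 ± 0.15, -0.28 ± 0.12, -0.16 ± 0.13, 0.15 ± 0.20, -0.19 ± 0.13 and -0.03 ± 0.20. At month 3, 5 of 7 CM mice lay below every Ctrl mouse in miR-425-3p, with 119.99 to 225 CPM (median 193) against 204 to 235 CPM (median 213). miR-191-3p was at 0.16 ± 0.18, -0.14 ± 0.19, 0.37 ± 0.23, 0.83 ± 0.40, 0.11 ± 0.18 and 0.61 ± 0.35. Its value at month 4 was 18.6 to 87.9 CPM (median 23.2) in CM mice and 14.0 to 28.6 CPM (median 22.5) in Ctrl mice, and mice 3338 (87.9 CPM) and 3357 (46.9 CPM) again stood above all others. Without mouse 3338 the difference of month 4 was 0.20, and without mouse 3341 that of month 6 was 0.18.

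**Figure D2:**
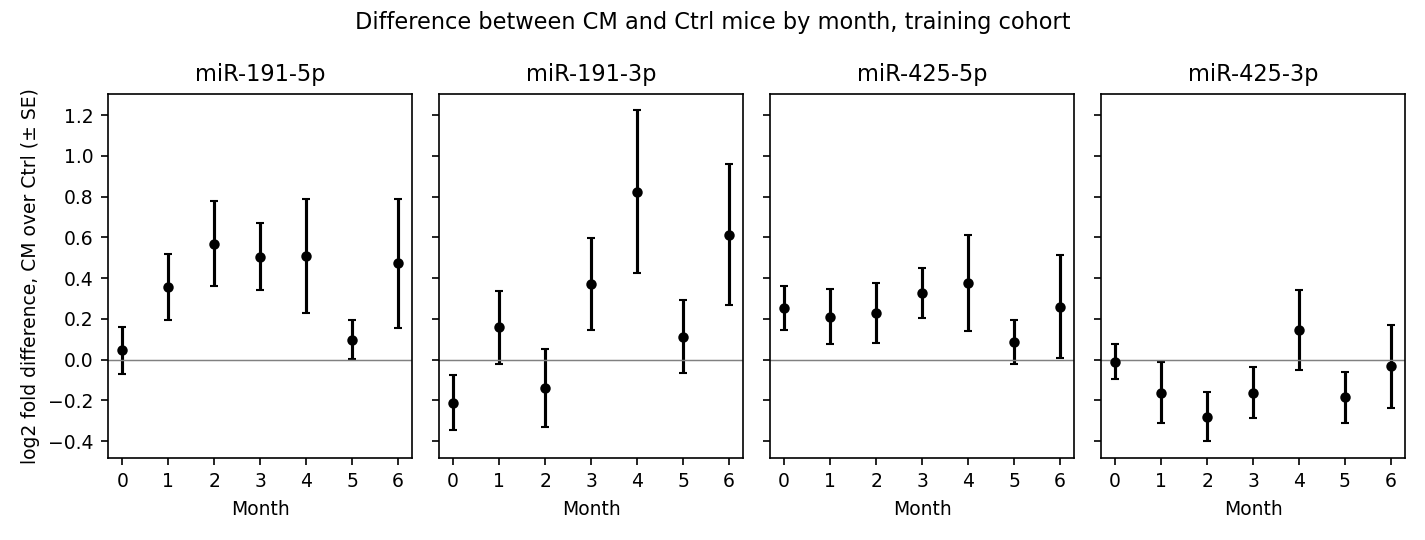
Log2 fold difference of CM over Ctrl mice (edgeR, points; bars, SE) by month for each member, training cohort, 5 to 7 CM and 7 Ctrl mice. miR-191-5p is near 0 at month 0 and between 0.36 and 0.57 at months 1 to 4, miR-425-5p is at 0.25 already at month 0, and miR-425-3p is at or below 0 except at month 4.

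As a mean over months 1 to 6 within a mouse, miR-191-5p had a log2(CPM + 1) of 14.77 ± 0.28 (SD) in 7 CM mice and 14.32 ± 0.18 in 7 Ctrl mice, and 6 of 7 CM mice lay above every Ctrl mouse. The means were 13.68 ± 0.21 and 13.41 ± 0.16 for miR-425-5p, 4.48 ± 0.44 and 4.21 ± 0.13 for miR-191-3p, and 7.58 ± 0.19 and 7.70 ± 0.09 for miR-425-3p. Only 3, 3 and 1 of 7 CM mice lay above every Ctrl mouse in these.

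Other measures also differed between the arms, though not in the same way at every month. The labels give each training library a G number from 1 to 7, whose meaning is not stated. Over months 1 to 6, miR-191-5p was higher in CM than in Ctrl libraries within 6 of 7 G numbers, with differences between -0.18 and 0.92, and in 9 of 11 cases where 1 month and G number held both arms. Such a case held only 1 or 2 CM and 1 to 3 Ctrl libraries, and the same mice recur over the months. Marker lists were summed per library. Over months 1 to 6 the log2 difference of CM over Ctrl in these sums varied. The erythroid list ran from -0.49 (month 6) to 1.35 (month 1), and the lymphocyte list from -0.90 (month 4) to -0.06 (month 6). The myeloid list ran from -0.52 (month 1) to 0.87 (month 2), and the platelet list from -0.31 (month 5) to 0.07 (month 2). At month 1 the 5 erythroid miRNAs, among them miR-451a and miR-144-3p, summed to 39904 to 492151 CPM in CM mice and 21712 to 59879 CPM in Ctrl mice. The medians were 46723 and 30406 CPM. At month 3 the 4 lymphocyte miRNAs, led by miR-150-5p, summed to 24147 to 55032 CPM in CM and 53089 to 92081 CPM in Ctrl mice, with 5 of 7 CM mice below every Ctrl mouse. The 2 myeloid miRNAs, miR-223-3p and miR-223-5p, were at 5190 to 11770 CPM in CM and 4358 to 7260 CPM in Ctrl mice at month 3, with 5 of 7 CM mice above every Ctrl mouse. The 4 platelet miRNAs overlapped between arms, at 66325 to 148021 CPM and 101107 to 141344 CPM. Nearly all of this sum is miR-21a-5p, with a mean of 124546 CPM against 4531 CPM for the next, miR-24-3p, and miR-21a-5p is expressed in many other blood cells too. Of the 15 markers, miR-199a-3p was at 0 in 81.4% of the libraries and the others in none. The part of these shifts in the levels of the members was not tested.

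In Ctrl mice miR-191-5p was lower at month 10 than at month 0, and none of the other 3 members passed the test. At month 0 its level was 17382 to 23214 CPM (median 21474, n = 7), and at month 10 it was 6777 to 15572 CPM (median 10938, n = 6), with no overlap. It was lower in 6 of the 6 mice with both libraries. The log2 change was -0.85 ± 0.16 (SE), and it lay between -1.02 and -0.72 in 16 alternative settings. At month 6 the change from month 0 was -0.46 ± 0.21, and at month 1 it was -0.05 ± 0.12. The share of all tested miRNAs called was 0.630% at month 1, 20.5% at month 6 and 26.8% of 477 at month 10.

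miR-425-5p, cut from the neighbouring hairpin, had 6927 to 9577 CPM (median 8682) in Ctrl mice at month 0 and 5933 to 8834 CPM (median 7354) at month 10. Its change of -0.10 ± 0.12 did not pass the test (edgeR, BH-adjusted p = 0.585), and in the deposited CPM it was -0.54 (limma, BH-adjusted p = 0.0423). miR-191-3p went from 13.6 to 20.97 CPM (median 18.1) at month 0 to 17.9 to 33.8 CPM (median 21.1) at month 10, a change of 0.43 ± 0.16 (edgeR, BH-adjusted p = 0.0645). With raw library sizes it was 0.53 (edgeR, BH-adjusted p = 0.0362). miR-425-3p was at 170 to 204 CPM and 160 to 208 CPM, a change of 0.07 ± 0.11 (edgeR, BH-adjusted p = 0.646). At month 10 the myeloid markers summed to 2900 to 7970 CPM in Ctrl mice, below all 7 values of month 0 (9281 to 13746 CPM), and the lymphocyte markers had a median of 20931 CPM against 55953 CPM. The erythroid and platelet sums stood higher, with medians of 80630.3 against 47676 CPM and 132397 against 103482 CPM, and overlapped between the months. The part of these lists in the lower level of miR-191-5p was not tested.

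In their last library, 6 of 7 CM mice stood above their own level of miR-191-5p before induction. The last libraries were from month 4 (mice 3338 and 3357), 6 (3341), 6.5 (3334, a time labelled T6p5 and read as month 6.5), 7 (3336), 9 (3370) and 10 (3368). miR-191-5p was 17780 to 26909 CPM (median 20945) at month 0 and 14256 to 50949 CPM (median 33091) in the last libraries. It was higher in 6 of 7 mice and lower in mouse 3368, whose last library came at month 10. miR-191-3p went from 11.3 to 18.9 CPM (median 16.2) to 26.3 to 87.9 CPM (median 52.6), higher in 7 of 7 mice with no overlap. miR-425-5p went from 8960 to 12969 CPM (median 9796) to 10453 to 23670 CPM (median 16211), higher in 7 of 7 mice. miR-425-3p went from 159 to 210.0 CPM (median 188) to 182 to 281 CPM (median 266), higher in 6 of 7 mice.

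**Figure D3:**
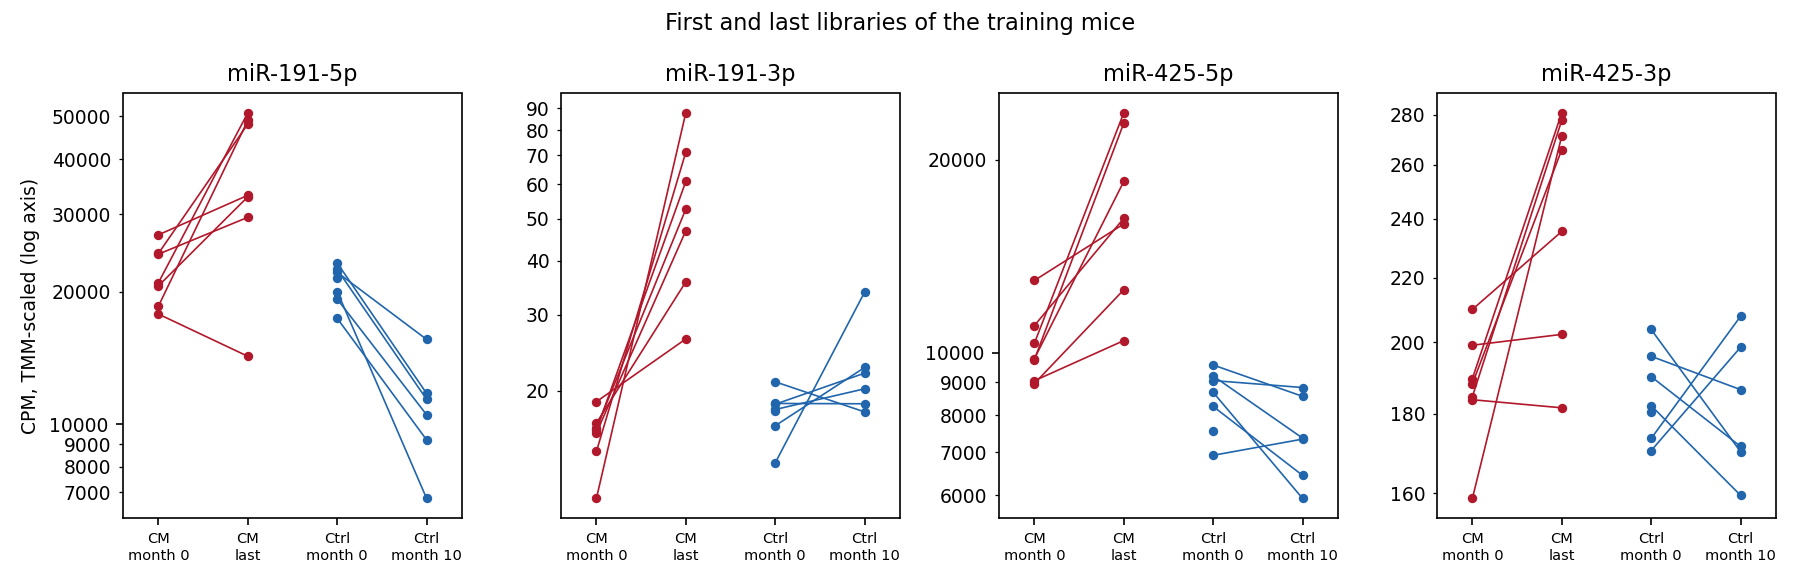
CPM, TMM-scaled, on log axes for each member in CM mice at month 0 and in their last library (red, n = 7) and in Ctrl mice at month 0 (blue, n = 7) and month 10 (n = 6), with lines joining libraries of the same mouse. miR-191-5p goes up in 6 of 7 CM mice and down in all 6 Ctrl mice, and miR-191-3p goes up in all 7 CM mice. The times differ: the last CM libraries are from months 4 to 10, and the CM mouse sampled at month 10 (3368) goes down in miR-191-5p. The Ctrl median of miR-191-5p was 21474 CPM at month 0 and 22678 CPM at month 4.

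On the log2 scale these changes were 0.90 ± 0.26 (SE) for miR-191-5p, 1.98 ± 0.31 for miR-191-3p, 0.91 ± 0.23 for miR-425-5p and 0.55 ± 0.20 for miR-425-3p. All 4 members were called higher, where 39.0% of 446 tested miRNAs were called, and nothing is read from this count, since CM libraries after induction chose the members. The changes were positive in all 15 alternative settings. The calls held in 12 of these for miR-191-5p, 14 for miR-191-3p, 13 for miR-425-5p and only 5 for miR-425-3p. With raw library sizes the median of all tested miRNAs moved by -0.20, and the 4 changes were 0.65, 1.72, 0.66 and 0.32. In these libraries the myeloid markers were at 2016 to 6308 CPM against 5390 to 39990.1 CPM at month 0, and the lymphocyte markers had a median of 25498 CPM against 55984 CPM. The erythroid sum was 19625 to 62485 CPM against 30603 to 115520.0 CPM, with 3 of 7 last libraries below every month 0 library, and the platelet sum was 113015 to 201081 CPM against 96181 to 128125 CPM, with 4 of 7 above. The part of these lists in the change was not tested.

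The ratio of the miR-191 arms was lower at the end in both arms of the study. In CM mice there were 943 to 1682 counts of miR-191-5p per count of miR-191-3p at month 0 (median 1506) and 414 to 1087 in the last library (median 629), lower in 7 of 7 mice. The 3p arm was higher in 7 of 7 and the 5p arm in 6 of 7. In Ctrl mice there were 917 to 1469 at month 0 (median 1200) and 200 to 709 at month 10 (median 553), lower in 6 of 6 mice. There the 5p arm was lower in 6 of 6 and the 3p arm higher in 4 of 6. The ratio of the miR-425 arms was 45.4 to 61.8 at month 0 and 51.6 to 85.2 in the last CM library, lower in 1 of 7 mice, and 39.9 to 50.9 and 29.9 to 49.9 in Ctrl mice, lower in 5 of 6. In the deposited CPM its median in Ctrl mice was 147 at month 0 and 65.04 at month 10. CM mice had 147 to 228 there at month 0 (median 201). Mouse 3368 ended at 90.3 at month 10, so its direction depends on the counting. At month 6.5 the 2 CM libraries had 229 and 231, and the 6 of month 4 had 165 to 199.

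**Figure D4:**
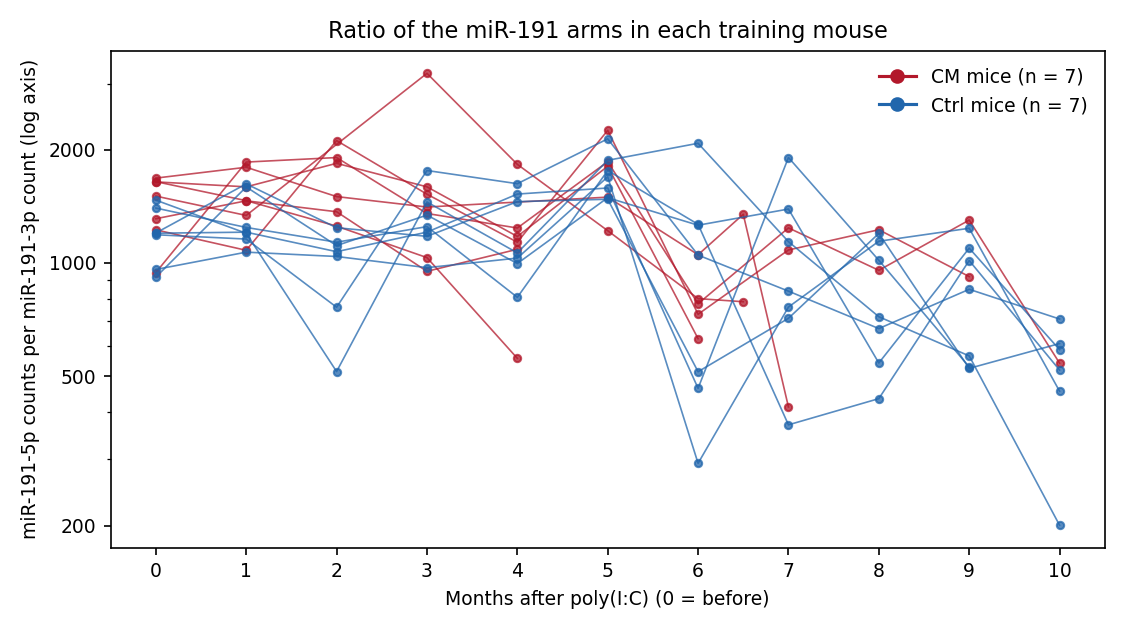
Counts of miR-191-5p per count of miR-191-3p, on a log axis, against months after poly(I:C), with 1 line per training mouse (7 CM in red, 7 Ctrl in blue). The median in Ctrl mice is 1200 at month 0 and the ratios end at 200 to 709 in Ctrl mice at month 10.

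The ratio of the 2 main arms, miR-191-5p to miR-425-5p, was 2.30 to 2.84 in 7 Ctrl mice at month 0 and 1.14 to 1.82 in 6 Ctrl mice at month 10, with no overlap and lower in 6 of 6 mice. In CM mice it was 1.79 to 2.50 at month 0 and was lower in the last library in 3 of 7 mice. These ratios were not tested.

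Over the training libraries, which share 14 mice, miR-191-5p and miR-425-5p varied together (Pearson's r of log2(CPM + 1) 0.834, Spearman's rho 0.771), with r = 0.802 in 76 Ctrl and 0.779 in 53 CM libraries. The arms of 1 hairpin did so less, with r = 0.241 for the miR-191 arms and 0.372 for the miR-425 arms. The miR-191 arms had r = -0.20 in Ctrl and 0.553 in CM libraries, and the miR-425 arms had 0.358 and 0.667. In the deposited CPM the value of the miR-425 arms changed sign, to -0.144 over all libraries and -0.378 in Ctrl, with 0.557 in CM libraries. Among 173 miRNAs with a mean of at least 100 CPM, the 3 most like miR-191-5p were miR-26b-5p (r = 0.918), miR-425-5p and miR-484 (r = 0.833). In the deposited CPM their r was 0.935, 0.874 and 0.814, and their ranks were 1, 3 and 5. These correlations describe the libraries, which also share scaling and depth.

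As a measure of how even the members were without the fusion, the SD of log2(CPM + 1) over 76 Ctrl libraries was 0.52 for miR-191-5p, rank 89 from the most even of 174 miRNAs at 100 CPM or more, beside a median SD of 0.52. miR-425-5p had an SD of 0.34 (rank 27), and miR-425-3p had the smallest of all, 0.22 (rank 1). In the deposited CPM miR-191-5p ranked 110 and miR-425-5p 44 of 181, and miR-425-3p was under 100 CPM and so not ranked. At month 10 its Ctrl values there were 28.3 to 88.5 CPM, against 160 to 208 CPM in the raw counts. Its rank therefore holds for the raw counts only. Of 8 other miRNAs often used as references in blood, 1 was called higher in CM mice at month 1 and 1 at month 3, none at months 0, 2, 4, 5 and 6, 1 was called lower in Ctrl mice at month 10, and 2 were called higher in the last CM libraries. None of the 8 was called in 3 or more months, but this does not show that they were even. In the raw counts their SD over the same Ctrl libraries ran from 0.22 (rank 2) to 2.00 (rank 173 of 174). In the deposited CPM it ran from 0.33 to 0.57, so it depends on the counting. At month 5 the SE of their log2 differences between arms ran from 0.095 to 0.97, and a difference with a large SE is seldom called.

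In the validation cohort the depth split the libraries. The 12 libraries of point 5 held 1645456 to 5445215 reads, and the other 90 held 1744 to 76906, of which miR-5099 made up 36.7% to 99.1% (median 95.6%). These 90 libraries held 3 to 259 reads of miR-191-5p each (median 21), and 2305 in all, which ranked it 7 among all miRNAs. Over the same libraries there were 14 reads of miR-425-5p, 27 of miR-425-3p and 9 of miR-191-3p, found in 12, 22 and 6 libraries. In the rest the count was 0, which allows a level of up to 50.6 to 293 CPM (3 reads, counting error only).

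The balance between the hairpins was also another one there. Pooled reads gave 165 of miR-191-5p per read of miR-425-5p in these 90 libraries, compared with 3.26 at point 5, 3.24 in the training reads recovered from the deposited CPM and 1.97 in the training counts. The arm order of miR-425 also turned, with 0.519 reads of the 5p arm per read of the 3p arm against 255 at point 5. The reason was not tested. Levels outside point 5 are therefore given for miR-191-5p alone, and counting error weighs on these too.

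**Figure D5:**
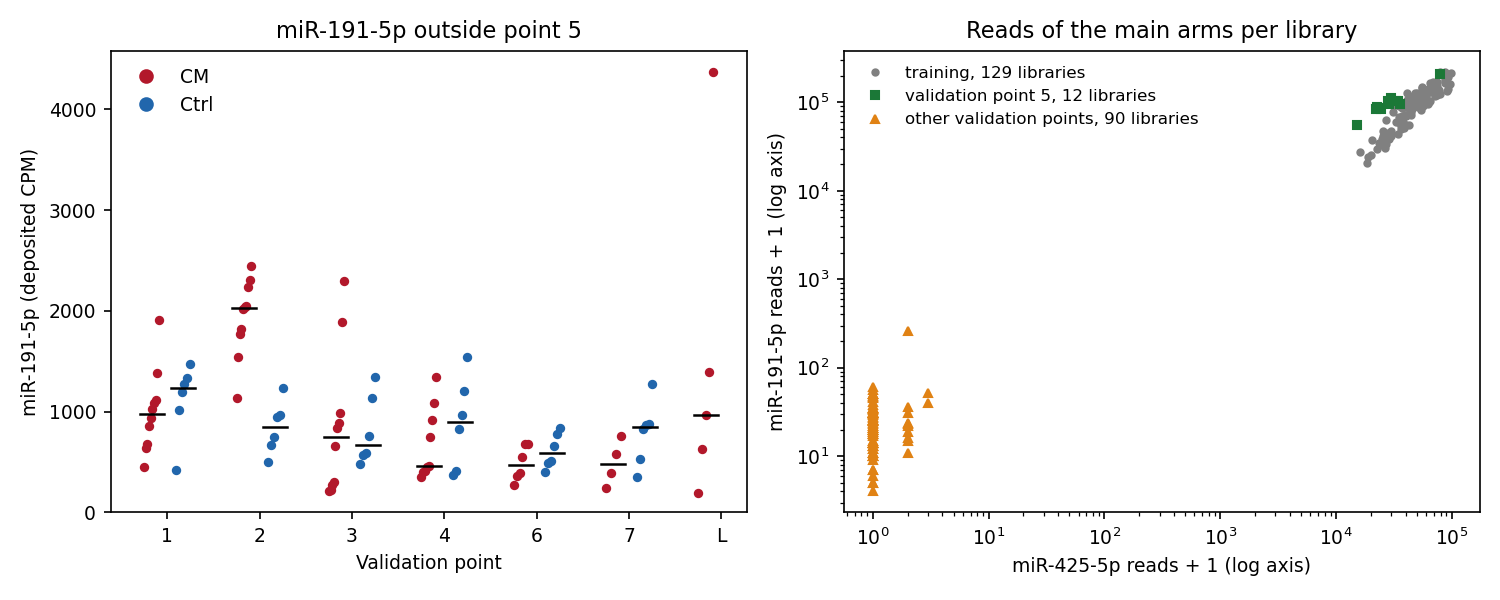
Left, deposited CPM of miR-191-5p by validation point without point 5 (points, libraries; black lines, medians; CM red, Ctrl blue; point L holds CM mice only). Right, reads + 1 of miR-191-5p against miR-425-5p per library on log axes: training and point 5 libraries lie together at the upper right, and the other 90 libraries hold at most 2 reads of miR-425-5p.

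The validation CPM was compared with limma-trend on log2(CPM + 1). Outside point 5, 1 read stood for 16.9 to 97.6 CPM. A step from 0 to 1 read is therefore large on this scale, and differences of miRNAs with few reads can be overstated. At point 2, miR-191-5p ranged from 1134 to 2441 CPM (median 2032, 24 to 40 reads) in 10 CM mice and from 505 to 1230 CPM (median 845, 11 to 29 reads) in 6 Ctrl mice. Of 10 CM mice 9 lay above every Ctrl mouse, and the log2 difference was 1.22 ± 0.30 (SE). CM libraries of this point were the shallower, with a median of 11172 reads against 30193. The difference was 1.01 with the libraries scaled without miR-5099 and 0.76 in edgeR on the reads. The median of all miRNAs tested at this point was itself at 0.31.

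At the other shallow points the arms overlapped, and on the log2 scale the differences were negative and smaller than or close to their SE. The log2 differences were -0.15 ± 0.32 at point 1, -0.29 ± 0.66 at point 3, -0.34 ± 0.53 at point 4, -0.36 ± 0.45 at point 6 and -0.70 ± 0.67 at point 7. At point 3 the CM median, 751 CPM, was above the Ctrl median, 671 CPM, and the negative log2 difference goes with CM libraries of as few as 3 reads. At point L the 5 CM libraries ranged from 188 to 4372 CPM (median 965), with no Ctrl library beside them.

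Point 5 was deep enough for all members. The deposited columns of this point sum to far more than those of the other points, so its levels are compared only within it. miR-191-5p was 205316 to 584022 CPM (median 289979) in 6 CM mice and 223945 to 323820.0 CPM (median 249025) in 6 Ctrl mice, and the log2 difference was 0.24 ± 0.29. As a share of reads it was 1.91% to 4.08% in CM and 2.00% to 2.90% in Ctrl mice. miR-191-3p was 119.3 to 974 CPM (median 219) in CM and 118.4 to 179.5 CPM (median 153) in Ctrl mice, with 5 of 6 CM mice above every Ctrl mouse and a difference of 0.75 ± 0.41. miR-425-5p and miR-425-3p differed by 0.27 ± 0.32 and 0.01 ± 0.36. Mouse 2684 was the highest in all 4 members. Without it the differences were 0.05 for miR-191-5p, 0.36 for miR-191-3p, 0.01 for miR-425-5p and -0.23 for miR-425-3p.

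Of the members tested in the validation cohort, 1 was called, miR-191-5p at point 2. Its difference was positive in all 21 alternative settings (0.76 to 1.35), but it was called in only 16 of them. The share of all tested miRNAs called was 2.78% at point 2, with the 3 other calls not pursued here, and 0% at points 1, 3, 4, 5, 6 and 7, where limma gave 18, 1, 20, 54, 5 and 8 miRNAs at an unadjusted p under 0.05 and edgeR on the reads also called 0. Again nothing is read from the count, since this contrast chose the members.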

How the data were processed

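Per the labels, total RNA of PBMC was ligated to adapters and small RNA libraries were sequenced, with training libraries in randomized batches and validation libraries in batches as collected. The authors trimmed reads with cutadapt, aligned them with Bowtie and computed TMM-scaled CPM in edgeR; their methods name build mm9, and the submitters' processing notes name GRCm38. The training counts are the authors' raw mirTOP counts. The deposited CPM columns do not sum to a fixed total, so they were used as a scaled signal deposited by the authors and not, as planned, as CPM in the strict sense. Their values are whole multiples of 1 read in all training columns and, by this rule, in all but 2 validation columns; 100% of values came out whole within 0.001 of a read.

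Counts were tested in edgeR 4.0.16 (R 4.3.3; TMM, filterByExpr, quasi-likelihood F test) on the libraries of the groups compared, without a mouse block. Validation CPM was tested with limma 3.58.1 (trend) on log2(CPM + 1), keeping miRNAs that reached 1 CPM in no fewer libraries than the smaller group holds. All p-values were two-sided and BH-adjusted over all miRNAs tested. Month 0 arms were tested, and so were Ctrl mice over time, where p-values of miR-191-5p are not given, since Ctrl libraries after induction are 1 side of the contrast that chose it; all other comparisons are descriptions. Alternatives were DESeq2 1.42.0, raw library sizes, other filters, the deposited CPM, G number or sex as a covariate, a mouse block, 1 fit of all libraries, pseudocounts of 0.5 and 4, scaling without miR-5099, recovered reads, and each mouse left out. Same-numbered libraries come from the same mouse; the correlation of their deviations from the group means lay between -0.15 and 0.12 over 27 pairs. Sequences came from RefSeq (GRCm38.p6), and scripts were tested on simulated data. Named were the 4 members, the 3 miRNAs most like miR-191-5p, and reference miRNAs called in 3 or more months. The members, marker and reference lists were chosen with earlier results of these data known.

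Training depth was 1792809 to 7958411 counts per library (median 4437464).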

Additional observations from a re-analysis of the deposited data

Results flagged for a closer look

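In groups of 4 to 10 libraries, a library was singled out when its gap to the nearest other was large against the whole range of log2(CPM + 1) (Dixon's criterion at 95%), which chance gives in about 1 in 20 groups. It held in 9 of 93 groups.

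miR-191-5p was low at 24735 CPM in CM mouse 3336 at month 2, where the next value was 30448 CPM. Ctrl mouse 3349 was low at month 2 in miR-191-5p (8187 CPM, next 20441 CPM) and in miR-425-5p (7387 CPM, next 10715 CPM), and low at month 5 in miR-425-5p (8770 CPM, next 11270 CPM). The same mouse was high in miR-191-3p at month 10 (33.8 CPM, next 22.6 CPM). CM mouse 3341 was high in miR-191-3p at month 6 (52.6 CPM, next 24.3 CPM), its last library, and CM mouse 2684 was high in miR-191-3p at validation point 5 (974 CPM, next 230 CPM). Ctrl mouse 2692 was low in miR-191-5p at validation point 1 (419 CPM, next 1013 CPM). Ctrl mouse 3340 was high in miR-425-3p at month 3 (235 CPM, next 216 CPM). Without Ctrl mouse 3349 the change of miR-191-5p in Ctrl mice from month 0 to month 10 was -0.72 on the log2 scale.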

How the results depend on the processing

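Of 455 values recomputed under alternatives other than leaving out a mouse, all but 30 kept their direction and their side of the threshold, or moved by less than 1 SD of the spread between mice. The change of miR-191-5p in Ctrl mice at month 10 was negative in all 16 alternatives. The 30 others follow, as log2 differences, and the cause was not tested.

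Most differences that changed sign lay near 0. miR-191-5p at month 0 was -0.0017 without the filter, -0.030 in the deposited CPM and -0.022 without mice 3334 and 3335, whose miR-126a-3p levels stood apart from their arms. miR-425-3p at month 0 was 0.0074 with raw library sizes and 0.019 with G number as a covariate. In Ctrl mice, miR-191-5p at month 1 was 0.0063 with raw library sizes and 0.010 in 1 fit of all libraries. miR-191-3p at month 6 was -0.0035 in the deposited CPM, -0.0053 with G number, -0.0096 with the mouse as a paired block and -0.011 in 1 fit of all libraries. miR-425-5p at month 6 was -0.11 in the deposited CPM but 0.25 in the raw counts, and miR-425-3p at month 10 was -0.0082 without the filter. The block changed no tested call.

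At month 10 in Ctrl mice, miR-191-3p (0.53, raw library sizes) and miR-425-5p (-0.54, deposited CPM) passed the test. Between arms, the deposited CPM gave -0.66, -0.47 and -0.39 for miR-425-3p at months 2, 3 and 5, and 0.057 for miR-425-5p at month 3. G number as a covariate gave -0.11 and -0.63 for miR-425-3p at months 2 and 3, 0.83 for miR-191-5p and -0.53 for miR-191-3p at month 3, and -0.086 for miR-191-3p at month 6. Both values of miR-191-3p changed sign, from 0.37 and 0.61 without this covariate. miR-425-3p in the last CM library was 0.32 with raw library sizes and 0.80 in the deposited CPM. miR-191-5p at validation point 2 was 0.76 on the reads. In the deposited CPM the mean log2 ratio over Ctrl libraries was 6.97 for miR-425-5p to miR-425-3p and 1.54 for miR-191-5p to miR-425-5p, and r of miR-191-5p and miR-425-5p was 0.874.

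Leaving out 1 mouse at a time gave -0.041 to 0.11 for miR-191-5p and -0.067 to 0.011 for miR-425-3p at month 0. In Ctrl mice it gave -0.14 to 0.021 for miR-191-5p at month 1, -0.079 to 0.14 for miR-191-3p and -0.0022 to 0.13 for miR-425-3p at month 6, and -0.15 to 0.0082 for miR-425-5p at month 10.

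The share of all miRNAs called also varied with the setting. Over the alternatives without leaving out a mouse it was 2.12% to 33.1% at month 1, 0% to 22.0% at month 2, 1.32% to 31.6% at month 3, 0% to 8.59% at month 4, 0% to 10.4% at month 5, 0% to 2.33% at month 6, 0% to 0.837% at month 0 and 0% to 44.4% at validation point 2. It was 0% to 4.10%, 4.15% to 26.7% and 6.60% to 33.3% in Ctrl mice at months 1, 6 and 10, and 0% to 45.5% for the last CM library.

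Counting error limits miR-191-3p in the training cohort and all 4 members in the 90 shallow validation libraries.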
